A study of Homo sapiens with 24 samples.

Results

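Untreated KG1a cells were compared with untreated HL60, MOLM14 and U937 cells, 4 established human acute myeloid leukaemia (AML) lines. The comparison used 12 of the 24 Affymetrix expression arrays of the series, 3 control arrays (A, B and C) per line. Each gene's difference is the mean of the 3 KG1a arrays minus the mean of the other 3 line means, each line with the same weight, and it was read together with the differences from each line. In the other 12 arrays the same lines had been exposed to 10 mM metformin for 24 h, an inhibitor of respiratory complex I, and those arrays served to measure the KG1a difference a second time. By the labels, oxidative phosphorylation is high in KG1a and MOLM14 and low in the 2 remaining lines. The labels name no genetic change, and cells were kept in exponential growth with penicillin and streptomycin. Each group is a single line. The labels do not say whether arrays A, B and C were separate cultures. The p-values thus reflect array-to-array spread only, and what belongs to the line, its donor or its culture cannot be told apart.

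As background, myeloid cells mature from CD34-positive progenitors into granulocytes and monocytes. The transcription factor PU.1, encoded by SPI1, and the C/EBP factors drive this step and switch on the genes of the primary granules, whose proteases and lysozyme kill microbes. KG1a is known as an immature CD34-positive line that has lost the capacity for myeloid maturation. HL60 is known as a promyelocytic line, U937 as a monocytic line, and MOLM14 as a monocytic line with an internal tandem duplication of the receptor FLT3.

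Values are log2 normalized signals, so a difference of 1 is a 2-fold difference, and levels were compared only between lines for the same gene. Of 14884 genes named on the arrays, 10431 were tested, those with at least 1 control group mean at or above 4.02, the median of all array rows. The threshold was an adjusted p of 0.05 (limma's moderated test with Benjamini-Hochberg adjustment over all genes tested). Array medians lay between 3.99 and 4.08, and arrays of a control group correlated at 0.983 to 0.991. Interquartile ranges were smallest on HL60 control C (1.90) and U937 control C (1.99), against 2.11 to 2.22 in KG1a.

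The line labels were compared with marker genes first. CD34, the surface sialomucin of haematopoietic progenitors, read 11.27, 11.18 and 11.26 on the KG1a arrays. The 9 other arrays read between 3.27 and 4.03, so the groups did not overlap and the others lay at or below the median of all rows. FLT3 averaged 10.38 in MOLM14, against 3.28 in KG1a, 3.64 in HL60 and 3.35 in U937. Myeloperoxidase (MPO), the peroxidase of primary granules, averaged 12.48 in HL60 and 8.93 in MOLM14, but 3.30 in U937 and 3.26 in KG1a. ANPEP, also among the myeloid markers, went the other way, at 9.29 in KG1a and 9.39 in U937, against 5.51 in HL60 and 3.81 in MOLM14. The T cell markers CD2, CD5 and CD8A averaged 3.98, 4.28 and 4.39 in KG1a, against 4.13, 4.43 and 4.44 in HL60, 3.89, 4.30 and 4.33 in MOLM14 and 4.05, 4.24 and 4.26 in U937. NKG7, a granule protein of NK and T cells, averaged 7.77 in KG1a, 5.78 in HL60, 6.54 in MOLM14 and 9.73 in U937. Markers of epithelium, stroma and platelets (EPCAM, KRT19, DCN, GP9 and PPBP) averaged between 3.00 and 3.93 in KG1a, and the platelet gene PF4 averaged 4.67 in KG1a and 4.66 to 4.91 in the others. Values of CD33, PTPRC, CEBPA, ELANE and the CD3 genes were not analysed here.

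KG1a differed widely from the other lines. Of 10431 genes, 6516 (62.5%) passed the threshold against the mean of the 3 lines, 3060 (29.3%) higher and 3456 (33.1%) lower in KG1a. The sign was the same against all 3 lines for 4856 genes (46.6%). A stricter count required the threshold to be passed against each of the 3 lines, and it held for 1589 genes (15.2%) higher and 1311 genes (12.6%) lower, called here higher or lower than each line (2900 genes, 27.8%). Against HL60 5908 genes (56.6%) were called, 26.5% of all genes higher and 30.2% lower. Against MOLM14 6307 (60.5%) were called, 31.2% higher and 29.2% lower, and against U937 6407 (61.4%), 29.2% higher and 32.2% lower. These comparisons share the KG1a arrays. On 30.5% of genes the 3 KG1a arrays lay apart from all 9 others, above them on 16.4% and below on 14.2%. Such wide calling rests on the small spread between arrays of a line. When each line was counted as 1 value, 149 genes passed, 130 higher and 19 lower.

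The largest differences belonged to KG1a. At least 16-fold higher than each of the other lines were 46 genes in KG1a, against 5 in HL60, 12 in MOLM14 and 7 in U937 when each line was set against the rest in the same way. At least 16-fold lower than each were 14 genes in KG1a, against 2, 3 and 6. These counts are a description with no test of the lines against each other, and the way of counting was chosen after the data were seen. The median absolute difference from KG1a was 0.33 for HL60, 0.38 for MOLM14 and 0.38 for U937. The median difference over all genes was -0.03.

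**Figure D1:**
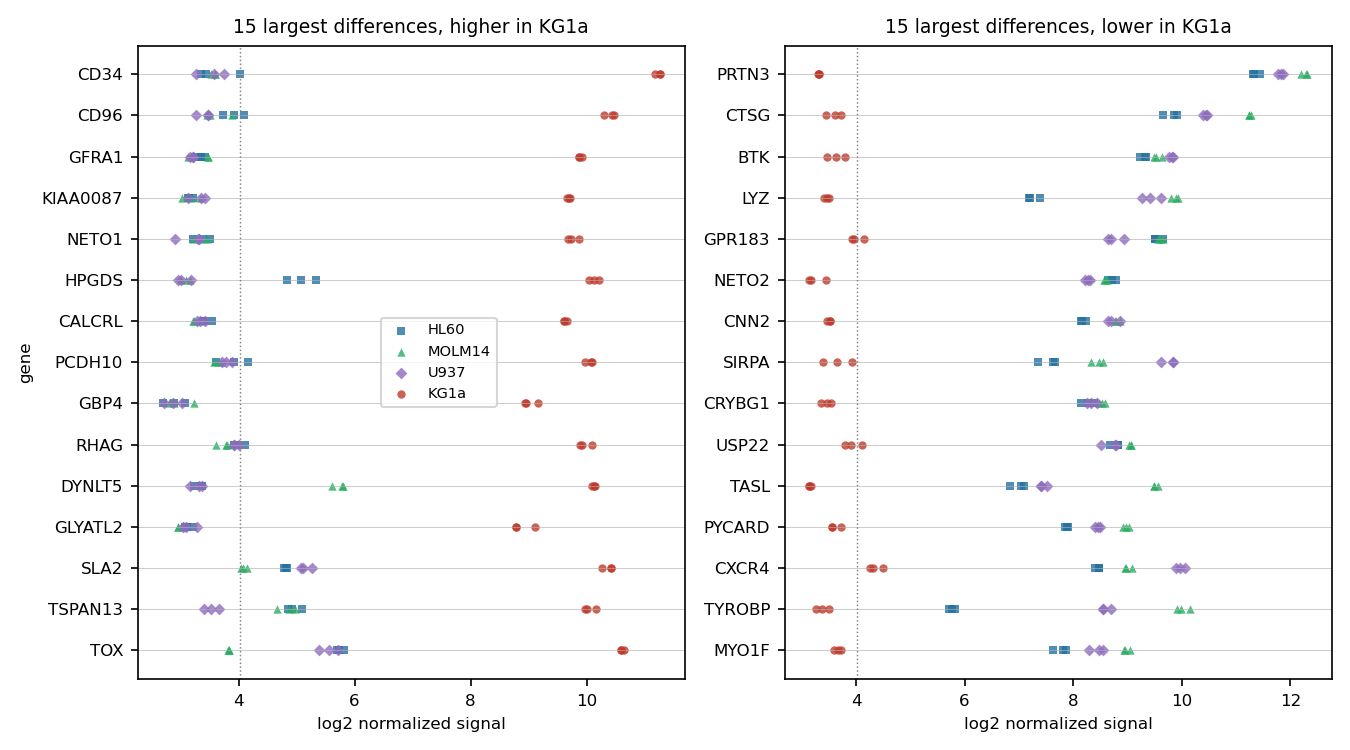
Log2 normalized signal (x axis) of the 15 genes with the largest positive and the 15 with the largest negative difference in untreated KG1a, 1 point per array and 3 arrays per line. The dotted line marks 4.02, the median of all array rows. In the left panel the KG1a points lie far right of the other lines, most of which lie near the dotted line, and in the right panel the KG1a points lie near it while the other lines lie between 5.71 and 12.31.

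Among the 15 genes that were highest in KG1a against the other lines, several encode surface proteins and receptors. CD96, a receptor of the immunoglobulin superfamily found on T cells, NK cells and leukaemic stem cells, read 10.30, 10.44 and 10.48 in KG1a and 3.27 to 4.10 in the 9 other arrays. The difference was 6.76 ± 0.10 (log2, SE; limma adjusted p = 2.2e-17), smaller than that of CD34, which was 7.67 ± 0.12 (adjusted p = 4.9e-17). Both genes were near the median of all rows in every other line, so their folds may be understated.

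GFRA1, a co-receptor for the neurotrophic factor GDNF, read 9.93, 9.87 and 9.87 in KG1a and differed by 6.58 ± 0.08. CALCRL, the receptor for adrenomedullin and CGRP, read 9.62, 9.67 and 9.62 in KG1a and 3.22 to 3.55 in the others, a difference of 6.29 ± 0.07. NETO1, an auxiliary subunit of kainate receptors, was higher by 6.48 ± 0.10, and PCDH10, a protocadherin, by 6.27 ± 0.09. In the same cells NETO2, the paralogue of NETO1, was lower by 5.28 on the log2 scale (SE 0.07). NETO2 read 3.14, 3.44 and 3.16 in KG1a and 8.21 to 8.79 in the others. The 2 paralogues were thus inverted between KG1a and the other lines. Both were picked from genes with no overlap between arrays, so their lack of overlap follows from that choice and is no further evidence.

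The rest of the 15 have varied products. HPGDS, the haematopoietic prostaglandin D synthase, read 10.04, 10.21 and 10.13 in KG1a, 4.84 to 5.33 in HL60 and 2.95 to 3.18 in MOLM14 and U937. TOX, a nuclear protein of T and NK cell development, read 10.59, 10.59 and 10.64 in KG1a, 5.70 to 5.81 in HL60, 5.39 to 5.72 in U937 and 3.81 to 3.84 in MOLM14. SLA2, an adaptor that dampens T cell receptor signalling, was higher by 5.69 ± 0.07. RHAG, a component of the Rh complex of red cells, was higher by 6.07 ± 0.07 although KLF1, a master factor of red cell genes, averaged 3.85 in KG1a, under the median of all rows. The tetraspanin TSPAN13 (5.61 ± 0.09), the guanylate-binding protein GBP4 (6.12 ± 0.11), DYNLT5 (6.01 ± 0.07), GLYATL2 (5.81 ± 0.08) and the non-coding KIAA0087 (6.48 ± 0.08) completed the 15.

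Among the 15 genes that were lowest in KG1a, proteases of the primary granules led. PRTN3, which encodes proteinase 3, read 3.31, 3.31 and 3.30 in KG1a. It read 11.31 to 11.45 in HL60, 12.20 to 12.31 in MOLM14 and 11.77 to 11.86 in U937, so the difference was -8.51 ± 0.06 (adjusted p = 2.0e-20). CTSG, which encodes cathepsin G, read 3.45, 3.61 and 3.72 in KG1a and 9.65 to 11.28 elsewhere, a difference of -6.90 ± 0.08. Lysozyme (LYZ) read 3.41, 3.47 and 3.50 in KG1a against 7.18 to 9.93, a difference of -5.39 ± 0.08. In each of the 3 other lines all 3 genes lay far above the median of all rows, and in KG1a they lay below it.

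Signalling genes of mature myeloid cells followed. BTK, the Bruton tyrosine kinase, read 3.46, 3.62 and 3.80 in KG1a and 9.23 to 9.83 in the 9 others, a difference of -5.93 ± 0.08. TYROBP, an adaptor with an activation motif that serves myeloid and NK receptors, was at -4.75 ± 0.08, and SIRPA, the receptor for CD47, at -4.94 ± 0.10. TASL, an adaptor of endolysosomal Toll-like receptors, was at -4.83 ± 0.07, and PYCARD, the adaptor of inflammasomes, at -4.82 ± 0.07. The chemotactic receptors GPR183 and CXCR4 were at -5.30 ± 0.08 and -4.79 ± 0.07.

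CXCR4, the receptor for CXCL12 that retains blood progenitors in the marrow, read 4.31, 4.50 and 4.26 in KG1a and 8.41 to 10.06 in the other arrays. It was the one member of the stem and progenitor surface list that was lower than each line. Genes linked to actin or the cell cortex stood in the same group of 15: CNN2, a calponin (-5.07 ± 0.07), and MYO1F, a myosin of immune cells (-4.73 ± 0.08). CRYBG1 was at -4.93 ± 0.07. USP22, the ubiquitin protease of the SAGA complex, read 4.10, 3.90 and 3.79 in KG1a and 8.51 to 9.07 in the others, a difference of -4.90 ± 0.08.

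PRTN3 and CTSG, the 2 genes with the largest negative differences, and CD34, the gene with the largest positive one, are known to be controlled by haematopoietic factors that include PU.1, so the 150 bases before their RefSeq starts (GRCh38.p14) are shown. Each runs 5′ to 3′ along the gene's strand, and capitals mark the letters GAGGAA, a core of PU.1 sites, on either strand (TTCCTC on the other strand).
PRTN3, chr19:840849-840998, + strand: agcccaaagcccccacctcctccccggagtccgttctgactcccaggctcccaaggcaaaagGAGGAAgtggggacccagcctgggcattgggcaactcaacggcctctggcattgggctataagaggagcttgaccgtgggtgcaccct
CTSG, chr14:24576251-24576400, - strand: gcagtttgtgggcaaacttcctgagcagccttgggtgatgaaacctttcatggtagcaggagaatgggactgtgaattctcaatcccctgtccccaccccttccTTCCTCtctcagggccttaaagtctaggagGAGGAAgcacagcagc
CD34, chr1:207911126-207911275, - strand: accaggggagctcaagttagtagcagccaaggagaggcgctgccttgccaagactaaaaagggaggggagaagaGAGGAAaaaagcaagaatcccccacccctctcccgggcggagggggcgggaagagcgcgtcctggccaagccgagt
Over the 250 bases before the start, GAGGAA on either strand occurred in 23.5% of the 7943 promoters of tested genes that RefSeq's table held. It occurred in 7 of the 13 promoters held for the 15 lowest genes (53.8%: BTK, CTSG, CXCR4, PRTN3, PYCARD, TYROBP and USP22) and in 3 of the 12 held for the 15 highest (25.0%: CD34, DYNLT5 and GBP4). The C/EBP half-site pair TTNNGCAA, the RUNX core TGTGGT and the GATA core AGATAA, sought on both strands, occurred in 6.01%, 8.51% and 5.06% of all promoters. Each was in at most 1 promoter of either group. Matches are letters in these windows, the motifs were chosen after the data were seen, and binding was not measured.

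The gene lists describe how far such differences extended through each function. For each list the counts of members higher or lower than each line are read against 15.2% and 12.6% of all genes tested. They were not read against the shares among neighbouring genes, which differ along the chromosomes as described further below.

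**Figure D2:**
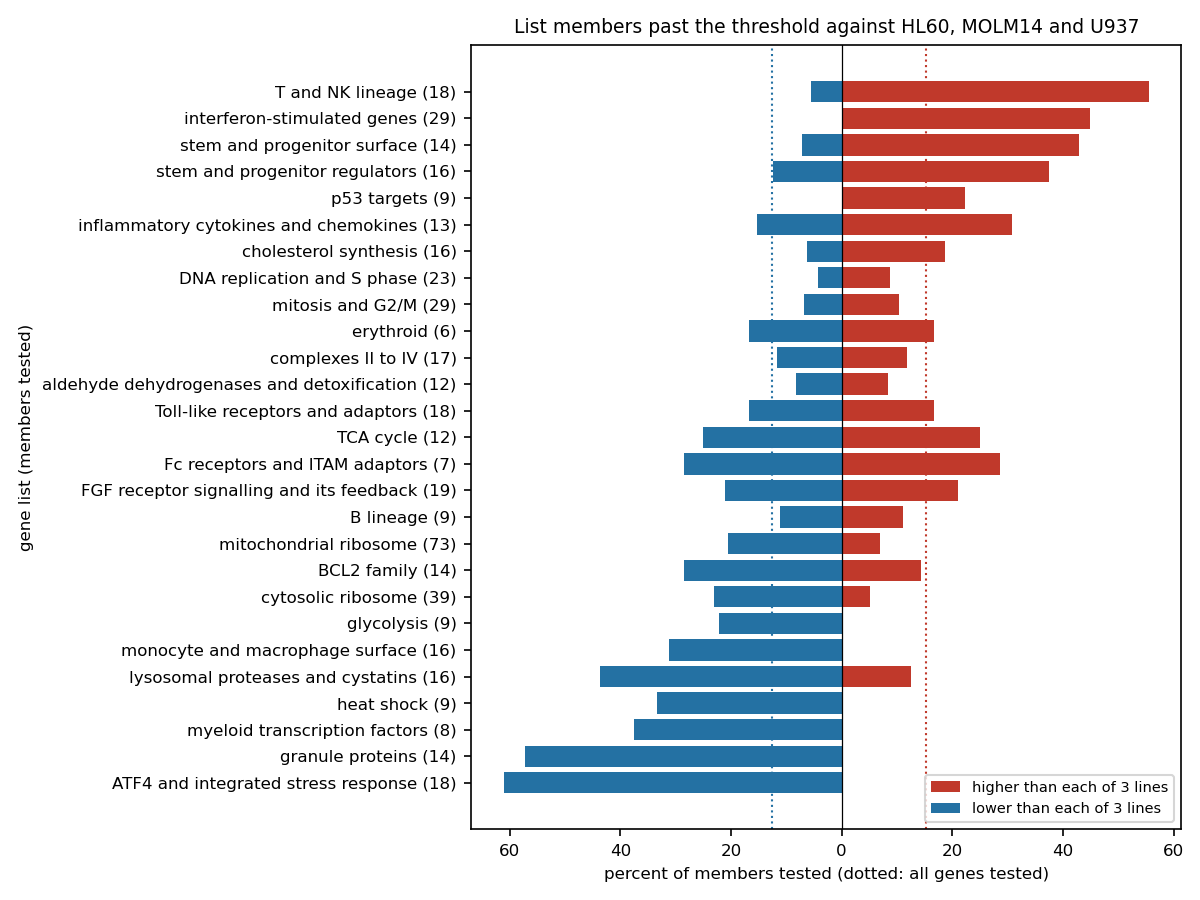
Percent of the tested members of each gene list that were higher (red, to the right) or lower (blue, to the left) in untreated KG1a than in each of HL60, MOLM14 and U937, with the number of members tested in brackets. Dotted lines mark 15.2% and 12.6%, the shares of all 10431 genes, and lists with fewer than 6 members tested are left out. Granule proteins (8 of 14) and stress response genes (11 of 18) reach furthest left, and T and NK lineage genes (10 of 18) and interferon-stimulated genes (13 of 29) furthest right.

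Of 14 granule protein genes tested, 8 were lower than each line and 0 were higher, with a median difference of -2.57. The 8 were PRTN3, CTSG, LYZ, AZU1, CFD, BPI, SRGN and CST7. AZU1, which encodes azurocidin, averaged 4.02 in KG1a, 6.97 in HL60, 10.10 in MOLM14 and 8.70 in U937. MPO had a difference of -4.98 ± 0.08 from the mean of the 3 lines but was as low in U937 as in KG1a, so it was not among the 8.

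All 16 genes of the monocyte and macrophage surface list were lower in KG1a than the mean of the 3 lines, with a median of -0.88, where 33.1% of all genes were. Lower than each line were 5 of them, CD68, CD4, MNDA, CD300LF and PILRA. The list's median difference was -1.73 against MOLM14, -1.39 against U937 and -0.19 against HL60. CD68, a lysosomal glycoprotein of macrophages, read 5.06, 4.99 and 5.06 in KG1a, 6.18 to 6.39 in HL60, 8.50 to 8.70 in U937 and 9.68 to 9.81 in MOLM14. MNDA, a nuclear protein of myeloid cells, read 3.56, 3.68 and 3.47 in KG1a, 6.53 to 6.54 in HL60 and 9.86 to 10.07 in U937. CD14, the endotoxin co-receptor of monocytes, was under 4.02 in all 4 lines (line means of 3.44 to 3.72).

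Of 8 myeloid transcription factor genes tested, 3 were lower than each line and 0 were higher (median -1.08). The list's median was 0.14 against HL60, -1.12 against MOLM14 and -1.19 against U937. SPI1, the gene of PU.1, read 4.65, 4.62 and 4.67 in KG1a and 7.37 to 7.98 in the 9 other arrays. Its difference was -2.87 ± 0.10 from HL60, -3.29 ± 0.10 from MOLM14 and -2.94 ± 0.10 from U937. The zinc finger repressor gene GFI1 read 5.01, 4.95 and 4.86 in KG1a against 6.07 to 7.65, and ZEB2, a repressor active in monocytes and dendritic cells, 6.17, 6.18 and 5.85 against 6.95 to 8.64. IRF8, a factor of the monocyte fate, was low in both KG1a (4.11) and HL60 (3.85) and high in MOLM14 (10.22) and U937 (8.07).

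GFI1 and its paralogue GFI1B were inverted. GFI1B, a repressor of erythroid and megakaryocytic cells and stem cells, read 7.90, 7.87 and 8.02 in KG1a and 3.56 to 4.05 in the others, a difference of 4.15 ± 0.09. The groups did not overlap for either gene.

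Genes of the lysosome were partly low. Of 16 protease and cystatin genes tested, 7 were lower than each line and 2 were higher (median -0.60). CTSS, the cathepsin that processes antigen in myeloid cells, read 4.86, 4.95 and 5.09 in KG1a against 8.03 to 9.31, and the protease inhibitor gene CSTA 3.31, 3.28 and 3.39 against 6.57 to 8.29. The 2 exceptions were CTSC, which activates granule proteases, and CTSW, a cathepsin of cytotoxic lymphocytes. CTSW read 9.47, 9.45 and 9.50 in KG1a, 6.27 to 6.64 in HL60 and 3.99 to 4.24 in the other 2 lines.

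Sensing and inflammatory genes went both ways. Of 18 Toll-like receptor and adaptor genes tested, TLR1, TIRAP and LY96 were higher than each line, and TLR2, TLR4 and PYCARD were lower. TLR2 read 3.61, 3.45 and 3.51 in KG1a and 5.32 to 6.74 elsewhere. TLR4, the receptor for endotoxin, read 3.33, 3.42 and 3.67 in KG1a, close to 3.73 to 3.88 in MOLM14 and far from 6.84 to 7.69 in HL60 and U937. Of 13 cytokine and chemokine genes, CXCL2, CXCL10, PTGS2 and OSM were higher than each line, and TNF and CCL5 were lower.

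TNF, the tumour necrosis factor gene, read 4.33, 4.15 and 4.03 in KG1a and 8.51 to 8.67 in MOLM14. The chemokine gene CCL5 differed by -3.36 ± 0.08. The neutrophil chemokine gene CXCL8 differed by -2.02 ± 0.11 from the mean of the 3 lines, but its difference of -0.22 ± 0.13 from MOLM14 did not pass (adjusted p = 0.166). Among 7 Fc receptor and ITAM adaptor genes, the Src family kinase LYN was higher by 2.09 ± 0.07, and it read 10.67, 10.45 and 10.53 in KG1a against 6.98 to 9.71. VAV1 was the other gene higher than each line, and BTK and TYROBP were lower.

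**Figure D3:**
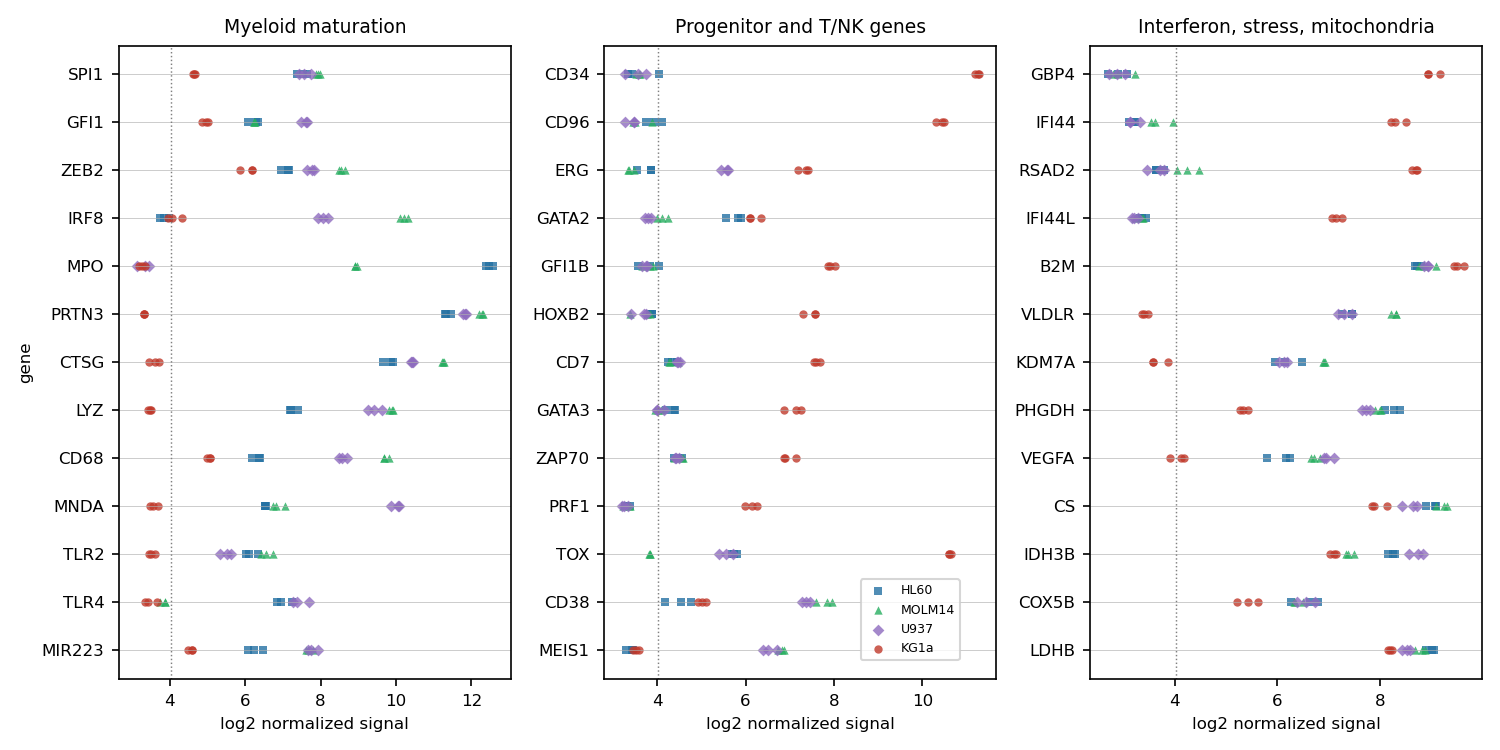
Log2 normalized signal (x axis) of named genes on the 12 untreated arrays, 1 point per array, with the dotted line at 4.02, the median of all array rows. SPI1, PRTN3, CTSG and LYZ lie left of every other line in KG1a, CD34, CD96, GFI1B and TOX lie right of every other line, and MPO and IRF8 show a line (U937 or HL60) that lies with KG1a.

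Progenitor genes were split. Of 14 surface genes tested, 6 were higher than each line (CD34, CD96, EMCN, CD44, HAVCR2 and PROM1), and the median was 0.26. EMCN, the endomucin gene of stem cells and endothelium, read 7.56, 7.51 and 7.65 in KG1a and 3.44 to 3.69 in the others. CD44, the hyaluronan receptor, was higher by 1.33 ± 0.09. PROM1, which encodes CD133, was called at only 0.40 ± 0.07 and averaged 4.02, so it lay at the median of all rows in KG1a. KIT, the stem cell factor receptor, did not pass at 0.18 ± 0.10 (adjusted p = 0.14). CD38, whose absence marks the most immature CD34-positive cells, averaged 5.02 in KG1a, 4.49 in HL60, 7.80 in MOLM14 and 7.36 in U937.

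Of 16 stem and progenitor regulators tested, GATA2, ERG, TAL1, FLI1, HHEX and GFI1B were higher than each line and MYB and EGR1 were lower. ERG, an ETS factor of stem cells, read 7.40, 7.37 and 7.18 in KG1a, 5.45 to 5.61 in U937 and 3.34 to 3.86 in HL60 and MOLM14. GATA2 read 6.35, 6.11 and 6.11 in KG1a, only 0.43 ± 0.11 above HL60 (adjusted p = 0.0028) but 2.07 ± 0.11 above MOLM14 and 2.40 ± 0.11 above U937. MYB, a factor of proliferating progenitors, averaged 9.30 in KG1a and 10.05 to 10.23 in the others. EGR1, an early response gene, read 3.53, 4.02 and 3.75 against 5.95 to 6.80.

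HOX genes pattern the body axis and mark blood progenitors. Of the 19 listed, 3 were tested, and 2 of them were higher than each line. HOXB2 read 7.57, 7.58 and 7.30 in KG1a and 3.39 to 3.89 in the others. It was thus tested through KG1a alone and could count only as higher, so 2 of 3 is no result about HOX genes as a group. HOXA2 read 6.64, 6.45 and 6.50 against 3.52 to 5.48. HOXB3, HOXB4, HOXB5, HOXB6, HOXB7 and HOXB8 stayed under 4.02 in every line mean, and HOXA9 was not analysed here. MEIS1, the cofactor of HOX proteins, was low in KG1a (3.52) and HL60 (3.39) and high in MOLM14 (6.80) and U937 (6.53). HOXD13 averaged 9.74 in HL60 and 3.21 to 3.35 in the other 3 lines.

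Genes known from T and NK cells were higher in KG1a. Of 18 tested, 10 were higher than each line (CD7, CD247, ZAP70, TRAT1, GATA3, LEF1, PRF1, EOMES, TBX21 and CD52) and 1, LAT, was lower, with a median of 0.45. CD7, a surface antigen of T cells and of some AML blasts, read 7.55, 7.69 and 7.59 in KG1a and 4.24 to 4.51 in the others, a difference of 3.23 ± 0.07. GATA3, a T cell transcription factor, read 7.14, 6.87 and 7.26 against 3.96 to 4.40. ZAP70, the kinase of the T cell receptor, read 7.14, 6.88 and 6.86 against 4.37 to 4.58. PRF1, the gene of perforin, read 5.98, 6.14 and 6.25 against 3.21 to 3.39. It was therefore tested through KG1a alone and could count only as higher. Of the 25 listed genes found on the arrays, 7 were low in every line and are not in the count of 10 of 18. CD6, CD28, LCK, BCL11B, GZMK, GNLY and SH2D1A stayed under 4.02 in every line mean, as CD2 did in KG1a. The list was thus higher in part, and its members named last stayed low in all 4 lines or in KG1a.

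B lineage genes gave no such count. Of 9 tested, BANK1 was higher than each line (8.03, 8.07 and 8.03 in KG1a, 3.37 to 6.95 elsewhere) and CD24 was lower. PAX5, the B cell master factor, averaged 4.54 in KG1a and 6.29 in MOLM14. Among mast cell and megakaryocyte genes, CPA3, the mast cell carboxypeptidase, read 8.38, 8.49 and 8.51 in KG1a and 3.37 to 4.09 in the others. Its 3 fellow members that were tested were not higher than each line.

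Interferon-stimulated genes were higher in KG1a. Of 29 tested, 24 were higher than the mean of the 3 lines, where 29.3% of all genes were, and 3 were lower, with a median difference of 1.0. Higher than each line were 13, and 0 were lower than each (1 after quantile normalization). IFI44 read 8.52, 8.23 and 8.30 in KG1a and 3.10 to 3.96 in the others, a difference of 5.00 ± 0.10. RSAD2, which encodes the antiviral enzyme viperin, read 8.70, 8.72 and 8.63 against 3.45 to 4.48, and IFI44L 7.27, 7.15 and 7.07 against 3.16 to 3.43. IFI44 and IFI44L lay under 4.02 on all other arrays, so they were tested through KG1a alone and could count only as higher. How many others of the 13 entered in that way was not counted. The rest of the 13 were IFIT1, IFIT2, IFIT3, IFIT5, IFITM3, IRF9, IFIH1, EPSTI1, SAMD9L and GBP4. B2M, the light chain of MHC class I, was higher by a smaller 0.68 ± 0.08. Interferons themselves and MHC class II genes were not analysed here.

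Stress response genes were low in untreated KG1a. The transcription factor ATF4 raises genes of amino acid synthesis and transport when amino acids are short or mitochondria are impaired. Of 18 of its targets and related stress genes tested, 17 were lower than the mean of the 3 lines, where 33.1% of all genes were. Lower than each line were 11, where 12.6% of all genes were, with 0 higher and a median of -1.14. This list too was chosen with earlier results of these data known. The 11 were ATF3, ASNS, DDIT3, PHGDH, PSAT1, SESN2, SHMT2, TRIB3, VEGFA, VLDLR and KDM7A. PHGDH, the first enzyme of serine synthesis, read 5.43, 5.27 and 5.34 in KG1a and 7.66 to 8.40 elsewhere. VLDLR, a lipoprotein receptor, read 3.35, 3.39 and 3.48 against 7.19 to 8.31, and VEGFA, the vascular growth factor gene, 3.91, 4.11 and 4.17 against 5.80 to 7.11.

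Of 9 heat shock genes tested, 8 were lower than the mean of the 3 lines, where 33.1% of all genes were. HSPA9, HSPB1 and HSPH1 were lower than each line. The small heat shock protein gene HSPB1 read 6.52, 6.25 and 6.55 in KG1a and 7.90 to 9.59 in the others. HSPA9, the mitochondrial HSP70, differed by only -0.67 ± 0.07.

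Energy metabolism genes bear on the labels' class of high oxidative phosphorylation. Of 17 genes tested from a list of respiratory complexes II to IV, 2 were higher than each line and 2 were lower. The median was -0.18 against the mean of the 3 lines, which mixes both classes. It was -0.13 against MOLM14, also classed as high, -0.02 against HL60 and -0.20 against U937. The complex II genes SDHA, SDHB, SDHC and SDHD were not among the 17. Higher were UQCRB at 0.78 ± 0.10 and COX6C at 0.84 ± 0.09, and lower were UQCRC1 at -0.58 ± 0.07 and COX5B at -1.09 ± 0.11. COX5B, a subunit of cytochrome c oxidase, read 5.62, 5.22 and 5.42 in KG1a against 6.26 to 6.79. Of 73 mitochondrial ribosome genes, 15 were lower than each line and 5 were higher (median -0.21). MRPS30 was at -1.22 ± 0.06 and MRPL44 at -1.12 ± 0.09, while MRPS28 was at 1.30 ± 0.08. MRPS28 lies in a run of 30 neighbouring tested genes on chromosome 8, of which 20 were higher than each line.

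Of 12 genes of the tricarboxylic acid cycle and its entry, CS, IDH3B and DLD were lower than each line and DLST, DLAT and PC were higher. Whether these genes lie in runs of neighbours that differ alike was not taken into account. Citrate synthase (CS) read 8.14, 7.84 and 7.89 in KG1a and 8.44 to 9.31 in the others. PC, the pyruvate carboxylase that refills the cycle, read 6.08, 5.76 and 5.62 against 3.56 to 5.31. Of 9 glycolysis genes, PGAM1 and LDHB were lower than each line (1 gene after quantile normalization or centring) and 0 were higher. LDHA did not pass at 0.10 ± 0.11 (adjusted p = 0.46). The other line classed with KG1a, MOLM14, lay above KG1a in CS (9.22 against 7.96), IDH3B (7.41 against 7.09) and DLD (8.23 against 7.64). It lay below KG1a in DLST (6.84 against 8.16), DLAT (8.93 against 9.37) and PC (5.19 against 5.82).

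Of 23 DNA replication genes, CCNE1 and CCNE2, the cyclins of S phase entry, were higher than each line and the helicase gene MCM7 was lower. Of 29 mitosis genes, 3 were higher and 2 lower. Of 39 cytosolic ribosome genes, 9 were lower and 2 higher (median -0.22), and RPS14 read 6.21, 6.16 and 6.01 in KG1a, against line means of 7.10 to 8.02. Of 14 BCL2 family genes, the death promoters BIK, BCL2L11 and BID and the survival gene MCL1 were lower than each line, and BCL2L1 and BAD were higher. BCL2L11, which encodes BIM, read 4.55, 4.60 and 4.51 in KG1a against 5.84 to 6.57.

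Of 16 cholesterol synthesis genes, IDI1, SQLE and DHCR7 were higher than each line and FDPS was lower. SQLE, the squalene epoxidase, read 9.89, 10.01 and 9.93 in KG1a against 7.35 to 8.84. Of 19 genes of FGF receptor signalling, 4 were higher than each line and 4 lower. Among the latter were ETV4 and ETV5, targets of the ERK pathway. ETV4 read 3.46, 3.55 and 3.49 in KG1a against 5.34 to 7.36, and ETV5 3.64, 3.82 and 3.76 against 4.82 to 6.21. DUSP6, also an ERK target, was higher than each line.

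The smaller lists complete the account. Of 9 genes of p53 targets tested, SESN1 and TP53I3 were higher than each line and 0 were lower. Of 12 aldehyde dehydrogenase and detoxification genes, GSTM1 was higher and MGST1 lower (3 lower without HL60 control C and U937 control C). Of 6 erythroid genes, RHAG was higher and EPOR lower.

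MicroRNA genes on the array report the locus transcript, not the mature microRNA. Of 479 microRNA loci tested, 31 (6.47%) were higher and 21 (4.38%) lower than each line, below the shares of all genes, with a median of -0.03. The loci below are those with the largest differences each way that RefSeq's table held, and the mature sequences are printed with the seed, bases 2 to 8, in capitals because the seed sets the targets.
miR-4500, chr13:87618671-87618687, - strand: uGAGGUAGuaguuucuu
miR-196b-5p, chr7:27169528-27169549, - strand: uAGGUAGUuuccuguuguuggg
miR-1299, chr9:40929010-40929031, - strand: uUCUGGAAuucugugugaggga
miR-181b-5p, chr1:198858925-198858947, - strand: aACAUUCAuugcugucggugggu
miR-223-3p, chrX:66018937-66018958, + strand: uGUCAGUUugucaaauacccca
miR-4653-3p, chr7:101159524-101159546, + strand: uGGAGUUAaggguugcuuggaga
miR-33b-5p, chr17:17813897-17813916, - strand: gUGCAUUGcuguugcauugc
miR-378i, chr22:41923271-41923291, - strand: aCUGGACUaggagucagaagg
miR-25-3p, chr7:100093571-100093592, - strand: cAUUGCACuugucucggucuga

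MIR4500 shares its seed GAGGUAG with the let-7 family, whose members restrain growth genes. The MIR4500 locus read 8.26, 7.73 and 7.87 in KG1a and 3.10 to 3.52 in the others, a difference of 4.68 ± 0.12. The 8 other tested loci of that seed differed by -0.24 to 0.09, and MIRLET7A3 alone of them passed the threshold, at -0.21 ± 0.07 (adjusted p = 0.017). The locus of miR-196b, a microRNA encoded in the HOXA cluster, read 9.70, 9.62 and 9.77 in KG1a, 7.44 to 7.84 in MOLM14 and U937 and 3.32 to 3.67 in HL60. MIR181B1 was close in KG1a (8.78) and HL60 (8.31), lower in MOLM14 (6.71) and near the median of all rows in U937 (4.01). MIR1299 read 8.50, 8.26 and 7.99 in KG1a and 4.19 to 6.37 elsewhere.

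MIR223, a microRNA gene that is switched on in granulocytes and monocytes, was the locus with the largest negative difference. It read 4.58, 4.59 and 4.49 in KG1a and 6.07 to 7.94 in the other lines, a difference of -2.69 ± 0.09. MIR4653 (-2.31 ± 0.14), MIR33B (-2.10 ± 0.12), MIR378I (-1.78 ± 0.14) and MIR25 (-1.76 ± 0.16) followed. The MIR25 seed AUUGCAC also occurs in MIR92A2 and MIR92B, whose loci did not pass the threshold, at 0.12 ± 0.13 and 0.11 ± 0.13. MIR378H, which shares the seed of miR-378i, passed against the mean of the 3 lines at -0.84 ± 0.19 (limma adjusted p = 0.00092) but was not lower than each line. Of the loci that share the miR-181b-5p seed, MIR181D (0.44 ± 0.13) and MIR181B2 (-0.38 ± 0.13) passed against the mean in opposite directions (limma adjusted p = 0.0064 and 0.023), and MIR181C and MIR4262 did not pass.

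Genes that differed were not spread evenly along the chromosomes. The order of genes in RefSeq (GRCh38.p14) was used to take medians over windows of 30 neighbouring tested genes, 663 windows with starts 15 genes apart, an analysis chosen after the data were seen and given with no test. Window medians ran from -0.98 to 2.14, with 5th and 95th percentiles of -0.43 and 0.60. Beyond 0.5 in size lay 63 windows, 43 above and 20 below.

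The highest window lay on chromosome 19, from ZNF506 to VSTM2B-DT, with a median of 2.14 and 20 of 30 genes higher than each line. Its median was 2.51 against HL60, 1.88 against MOLM14 and 2.16 against U937. A window from LINC00665 to ZNF573 on the same chromosome had a median of 1.21, and 19 of its 30 genes were higher than each line. Both windows lie in clusters of zinc finger genes, whose related sequences may share array signal. On chromosome 14 the window from ZBTB1 to ZNF410 stood at 1.02, and on chromosome 11 that from CHORDC1 to MMP1 at 0.83. On chromosome 11, 39.7% of tested genes were higher than each line, and on chromosome 14 37.8%, against 15.2% of all genes. The chromosome 8 window from MRPS28 to PDP1 had a median of 0.93, with 1.34 against HL60, 0.61 against MOLM14 and 0.90 against U937.

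The lowest window, RPS26 to DCTN2 on chromosome 12, had a median of -0.98 and 24 of its 30 genes were lower than each line. On chromosome 7 the window from DLX6 to MIR106B had a median of -0.84 with 18 genes lower than each line, and on chromosome 5 that from IL17B to THG1L had -0.72 with 16. On chromosome 17 the window from EIF5A to RPL26 stood at -0.59. Copy number was not measured, and its part in these runs was not tested. Members of the gene lists that lie in such runs were not set apart in the list counts above. All 63 windows had the same sign in the metformin arrays, as did 566 of all 663 windows. Neighbouring windows share genes, so the 63 are not separate runs.

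**Figure D4:**
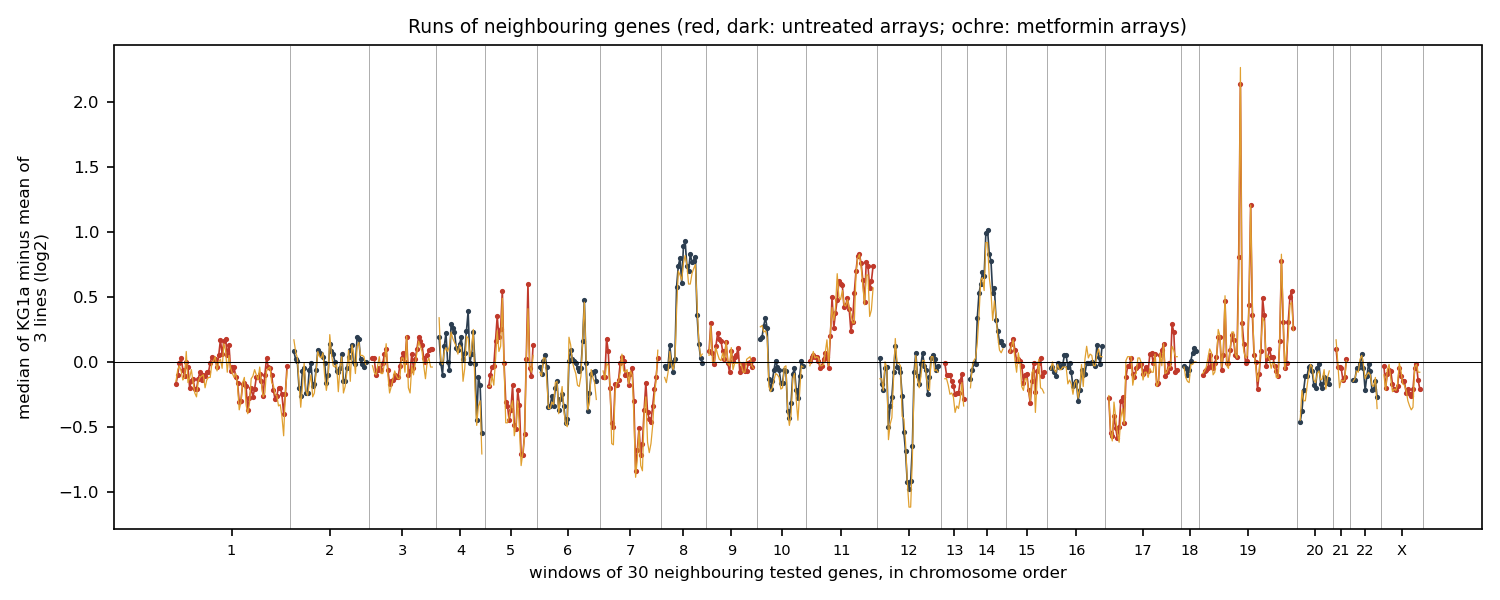
Median difference between KG1a and the mean of the 3 lines (y axis, log2) in windows of 30 neighbouring tested genes, in chromosome order (x axis). Points and red or dark lines, alternating by chromosome, are untreated arrays and the thin ochre line is the metformin arrays. The 2 lines run close together, with the highest window (2.14) on chromosome 19 and the lowest (-0.98) on chromosome 12.

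The difference between KG1a and the other lines was measured again in the 12 metformin arrays, which shared no array with the comparison above. There 6923 genes (66.4%) passed the threshold, 3014 (28.9%) higher and 3909 (37.5%) lower. Of the 6516 genes called in untreated arrays, 6377 (97.9%) had the same sign with metformin, and 5731 (54.9% of genes tested) were called in both with the same direction. Another 20 (0.192%) were called in opposite directions. Of the 2900 genes higher or lower than each line, 2842 (98.0%) were called again with the same sign against the mean of the 3 lines. CD34 differed by 7.67 ± 0.12 untreated and by 7.81 with metformin, CTSG by -6.90 and -6.78, and SPI1 by -3.03 and -3.16. The arrays of both sets come from the same 4 lines, so they do not show how other leukaemias of either kind would differ.

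The size of the difference changed with metformin for 348 genes (3.34%), 97 (0.93%) with a higher and 251 (2.41%) with a lower value of KG1a against the rest. After quantile normalization the split was 175 and 223, and leaving out single arrays gave between 179 (without KG1a control A) and 397 genes (without HL60 control A). It was 224 without KG1a control C and 195 without KG1a metformin B. Of 16 cholesterol synthesis genes tested, the difference changed upward for 12 and downward for 0. INSIG1, the sterol sensor partner, differed by -0.62 untreated and by 0.93 with metformin, and HMGCS1, an enzyme of sterol synthesis, by 0.76 and 2.14. HMGCS1 averaged 8.16 untreated and 8.23 treated in KG1a, and 8.86 and 6.52 in HL60. Over the 3 other lines together its mean was 7.40 and 6.09.

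Of 18 ATF4 and stress response genes tested, the difference changed downward for 12 and upward for 2, PHGDH and PSAT1. The members were chosen with earlier results of these data known, so the counts only describe the list. Upward changes were also found for 8 of 23 DNA replication genes and 4 of 14 granule protein genes, with 0 downward in each. For the stress response genes, KG1a thus stood mostly lower against the rest with metformin. Their median difference was -1.14 untreated and -2.17 with metformin. KDM7A, a histone demethylase gene, averaged 3.67 and 3.82 in untreated and treated KG1a and 6.21 and 8.73 in HL60. Its mean over the 3 other lines was 6.41 and 7.91. VLDLR averaged 3.41 and 3.34 in KG1a, 7.39 and 8.98 in HL60, and 7.66 and 8.62 over the 3 other lines. In both genes the KG1a means stayed under the median of all rows, where array differences are compressed.

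**Figure D5:**
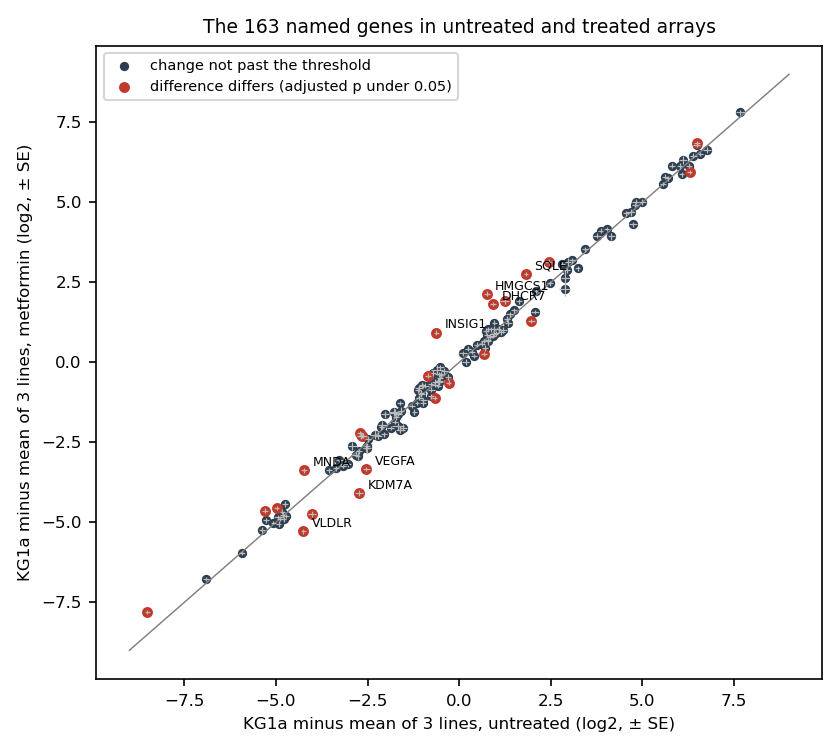
Difference between KG1a and the mean of the 3 lines for the 163 named genes, in untreated arrays (x axis) and in metformin arrays (y axis), log2 with bars of 1 SE. The grey line marks equal differences, and red points are genes whose difference itself changed (limma adjusted p under 0.05). Most points lie along the line, with INSIG1 and HMGCS1 above it and KDM7A and VLDLR below it.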

How the data were processed

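The series' value table held 24 Affymetrix arrays labelled from 250 ng total RNA, per the labels' protocols. The deposited values were read as log2 normalized signal from their range (1.88 to 14.2). The log base and the authors' normalization are not given in these sources, and Partek is the tool listed in the submitters' processing notes. Of 53617 rows, 16098 had 1 gene, 0 several, and 37519 are unnamed here. All 16098 matched RefSeq. For the 779 genes with more than 1 row, that of highest mean over the 24 arrays stood for the gene.

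limma 3.58.1 (R 4.3.3) fitted 4 group means on the 12 control arrays (8 residual degrees of freedom), the same on the metformin arrays, and 8 group means for the change between them. The scripts were tested on simulated data. Figures were drawn with matplotlib 3.10.9.

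Named genes were the 15 largest differences each way among genes called against each line with no overlap between arrays, the top 4 members of each list, a fixed set, up to 5 microRNA loci each way, and 3 genes per line each way. Members, lists and rules were chosen with earlier results of these data known. Lists of MHC class II, integrin, NADPH oxidase and drug efflux genes had at most 1 gene tested and are not analysed here. XIST and Y-linked genes were left out. Alternatives were other scalings, filters, rows, moderation, a replicate block, and leaving out arrays or lines.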

Additional observations from a re-analysis of the deposited data

Results flagged for a closer look

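For 23 of the 163 named genes the difference between KG1a and the mean of the 3 other lines itself changed between untreated and metformin arrays (test of the difference in limma over 24 arrays, adjusted p under 0.05). Values are the difference with metformin minus the difference without, on the log2 scale, and all 23 are given with no explanation. Where the change was downward, KG1a stood lower against the other lines with metformin: KDM7A -1.36, VLDLR -1.03, VEGFA -0.81, the protease inhibitor CSTA -0.72, FLRT2 -0.69, HSPA9 -0.45, CA2 -0.43, LUM -0.36 and CALCRL -0.34. For FLRT2 (4.28 to 6.06) and LUM (4.04 to 5.00) HL60 was the line whose mean rose.

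Upward changes were found for PHGDH 0.33, KIAA0087 0.38, MPO 0.43, HSPA1A 0.43, TNF 0.48, GPR183 0.67, CCNE2 0.68, MIR181B1 0.69, PRTN3 0.72, MNDA 0.86, DHCR7 0.90, SQLE 0.94, HMGCS1 1.38 and INSIG1 1.55. INSIG1 changed the sign of its difference, from -0.62 to 0.93. PRTN3 averaged 3.31 and 3.40 in KG1a, and its mean in HL60 was 11.36 untreated and 10.16 with metformin. Over the 3 other lines together its mean was 11.82 and 11.20.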

How the results depend on the processing

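Total counts of genes called stayed within 1.5 times of those reported under quantile normalization, centring, other filters, mean rows, trended moderation, 1 fit of 24 arrays, leaving out a line (run only against the mean of the 3 lines) and leaving out HL60 control C and U937 control C together (6809 genes against the mean of the 3 lines). Larger moves came with a required difference of 1, with each line as 1 value, and, for the change with metformin, without single arrays (179 without KG1a control A, 195 without KG1a metformin B, 224 without KG1a control C). Upward changes with metformin numbered 97, and 175 after quantile normalization. With a difference of at least 1, 1682 genes were called against the mean of the 3 lines, 1775 against HL60, 1995 against MOLM14, 2006 against U937, 1511 with 1 sign and 765 against each line. With each line as 1 value, 149 genes were called against the mean of the 3 lines and 149 with 1 sign. Of the 161 named genes past the threshold 32 stayed past it, among them CD34, CD96, PRTN3, CTSG, BTK, SPI1, GFI1B, HOXB2, CD7 and IFI44. The other 129 lost their call, among them LYZ, HPGDS, TOX, TYROBP, SIRPA, CXCR4, ERG, PHGDH, VLDLR and MIR223. Leaving out 1 array gave 5957 to 6665 genes against the mean of the 3 lines and 179 to 397 for the change with metformin. Among named genes, PECAM1 lost its call without KG1a control A (adjusted p = 0.186) and ERAP1 without KG1a control C (adjusted p = 0.0613, limma). No named gene reversed. List counts of a few genes moved more. Without HL60 control C and U937 control C, an alternative chosen for the lists after seeing the data, mitochondrial ribosome genes higher than each line went from 5 to 3, BCL2 family genes from 2 to 1, Fc receptor genes from 2 to 1, p53 targets lower from 0 to 1 and erythroid genes lower from 1 to 0. DNA replication genes went from 2 higher and 1 lower to 3 and 2, there and after quantile normalization. The requirement of a difference of 1 was not run gene by gene, since it leaves each value as it is.

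Among untreated arrays, a shared letter did not in general go with closer deviations between lines. Deviations of same-letter arrays from different lines correlated at -0.21 to 0.37 (median -0.03, 4 of 18 pairs over 0.1). Those of different letters correlated at -0.33 to 0.28 (median -0.02, 10 of 36 pairs over 0.1). The highest value, 0.37, was between HL60 control C and U937 control C. Whether untreated and metformin arrays of the same line and letter were paired was not tested. With the replicate block 6495 genes were called against the mean of the 3 lines, 2892 against each line and 333 for the change with metformin. The number of arrays, 3 per line, limits the precision, and signal over background was not used, so differences of genes near 4.02 are compressed.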
